A study of Rattus norvegicus with 6 samples.

Results

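The transcripts of 10 genes of the mTOR pathway, Mtor, Rptor, Rictor, Deptor, Ddit4, Ddit4l, Sesn1, Sesn2, Eif4ebp1 and Rps6kb1, were followed in the gastrocnemius muscle of rats infused with olanzapine. They were taken by name as the kinase, the scaffolds of its complexes, its inhibitors, most of them stress-linked, and its translation targets. The choice used no value of theirs as a criterion but was made with earlier results of these data known. All 10 were found, each once, among the 26406 genes of the deposited table. Of them, 9 were among the 10285 genes that were tested, those whose FPKM (fragments scaled to transcript length and to the mapped reads of the library) averaged 1 or more over the 6 rats. Rictor was below that level. The animals were male Sprague Dawley rats (Crl:SD), fed standard chow, with an intravenous catheter. Olanzapine, an atypical antipsychotic that perturbs glucose metabolism within hours, was given to rats 4, 10 and 12 by intravenous infusion, with 1 mg per 100 g of body weight as a loading dose in the first 0.5 h, followed for 23.5 h by 0.04 mg per 100 g each hour. Rats 3, 9 and 11 received vehicle at equal rate and volume. The body weights were 356 to 382 g in the vehicle group and 366 to 400 g in the olanzapine group, the muscle was removed under isoflurane anesthesia in all rats, and 1 library was made per rat.

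The kinase mTOR works in separate complexes. In mTORC1 the scaffold raptor (Rptor) presents substrates such as the S6 kinase Rps6kb1, which promotes ribosome production and translation, and the translation repressor Eif4ebp1, which releases the cap-binding factor once it is phosphorylated. In mTORC2 rictor (Rictor) directs the kinase to Akt and Sgk1. Amino acids act on mTORC1 through the Rag GTPases at the lysosome and insulin acts through Akt, the TSC complex and Rheb, and in muscle this pathway couples food and loading to protein synthesis. Stress is known to restrain it through Ddit4 (also called REDD1) and Ddit4l (REDD2), which act upstream of the TSC complex. Stress also acts through the sestrins, on the amino acid arm. Deptor is an inhibitor that binds mTOR itself. The activity of the pathway is set largely by phosphorylation, which was not measured here.

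The FPKM of a rat summed to between 945068 and 1183006, and 13996 to 14795 genes per rat were above 0. Relative to vehicle rat 3, the depth inferred from the lowest values was 0.667 in vehicle rat 9, 0.44 in vehicle rat 11 and 0.735 to 0.917 in the olanzapine rats. It was read from the most common ratio between low values. Only 22 of the 504 genes used for vehicle rat 11 held that ratio, and 78 of 843 for olanzapine rat 10. Olanzapine rat 12 held the lowest value of the 6 rats in 34.9% of the tested genes and vehicle rat 11 the highest in 28.3%. Markers of skeletal muscle fibers such as Acta1 and Ckm were abundant in every rat, with a summed level of 8 markers of 78391 to 124200 FPKM. The summed level of 10 slow fiber markers was 18821 to 33817 FPKM in the vehicle rats and 2804 to 7144 FPKM in the olanzapine rats, and 9 of these 10 genes were lower at an adjusted p under 0.05 (limma). In a whole muscle, fewer cells or fibers of a type and less RNA per cell cannot be told apart. The sum of 4 satellite cell markers, of which 2 (Pax7 and Calcr) were under 1 FPKM in every rat, was 7.7 to 8.65 FPKM in the vehicle rats and 6.35 to 6.86 FPKM in the olanzapine rats. The 6 adipocyte markers summed to 147 FPKM in vehicle rat 9, to 266 FPKM in olanzapine rat 4 and to 24.5 to 33.4 FPKM in the other 4 rats. The sums of markers of endothelium, leukocytes, fibroblasts, Schwann cells and erythrocytes overlapped between the groups.

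The translation repressor Eif4ebp1 was higher in every olanzapine rat than in any vehicle rat, and the kinase Mtor and its scaffold Rptor were lower in every olanzapine rat. The inhibitors Deptor, Ddit4, Ddit4l, Sesn1 and Sesn2 overlapped between the groups, as did Rictor and Rps6kb1. None of the 9 tested members passed an adjusted p under 0.05 in limma, where 0.506% of all tested genes did. At an unadjusted p under 0.05, 1 member was higher (Eif4ebp1) against 3.79% of all tested genes, and 1 was lower (Mtor) against 9.45%. Groups without overlap occurred in 1 member with olanzapine higher, where 5.12% of the tested genes had them, and in 2 members with olanzapine lower, where 14.6% had them. The study used a likelihood ratio test with no term for the spread between rats. A Poisson version of it, run on each group's summed FPKM, passed 13.9% of the tested genes and 2 of the 9 members (Ddit4l and Eif4ebp1) at an unadjusted p under 0.05. The median log2 fold change of the 9 members was -0.09, beside -0.11 over all tested genes. That median over all genes was 0.03 after scaling by median-ratio size factors, and the small values of Sesn2 and Rps6kb1 changed sign between the scalings. The slow fiber and satellite cell marker sums given above were also separated by group. Each of the 10 slow fiber genes was separated, but each of the 4 satellite cell genes overlapped. The sums were not computed again under other scalings. The part of either marker set in the separation of Eif4ebp1, Mtor and Rptor was not tested. With either scaling between rats that was tried, Mtor and Eif4ebp1 had groups without overlap and Rptor overlapped.

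**Figure D1:**
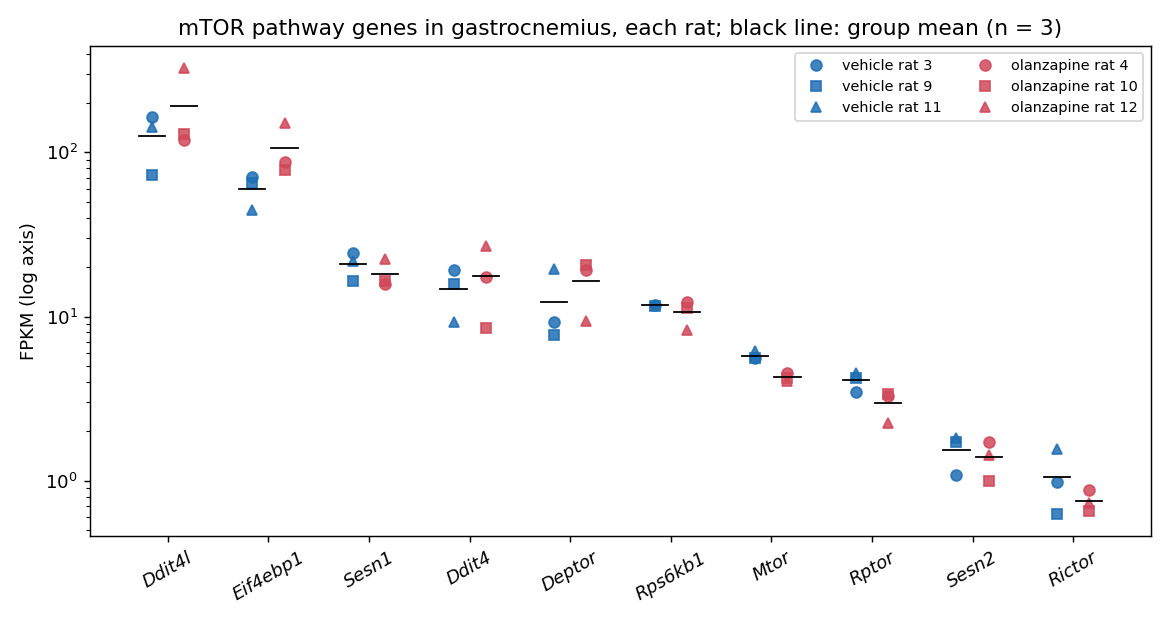
FPKM of the 10 genes on a log axis, from the most to the least abundant, with vehicle rats in blue on the left and olanzapine rats in red on the right of each gene and a black line at the group mean of 3 rats. The groups separate for Eif4ebp1, Mtor and Rptor, and the spread within the olanzapine group is widest on this axis for Ddit4 and Ddit4l, where rat 12 is highest.

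FPKM is per length of transcript, so levels can be set beside each other between genes. In the vehicle rats the order of the mean levels was Ddit4l at 126 FPKM, Eif4ebp1 at 60.2 FPKM, Sesn1 at 20.9 FPKM, Ddit4 at 14.7 FPKM, Deptor at 12.2 FPKM, Rps6kb1 at 11.7 FPKM, Mtor at 5.79 FPKM, Rptor at 4.08 FPKM, Sesn2 at 1.54 FPKM and Rictor at 1.06 FPKM. Neighbors in this order whose ranges over the 3 rats overlapped were Sesn1 and Ddit4, Ddit4 and Deptor, Deptor and Rps6kb1, and Sesn2 and Rictor. The order of the means was identical in the olanzapine rats. There the ranges of Ddit4l and Eif4ebp1 overlapped too, and those of Sesn2 and Rictor did not. The inhibitors and targets of the kinase were thus listed at higher levels than the kinase and its scaffolds, with Sesn2 as the exception.

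Mtor encodes the kinase that both complexes share (rat assembly Rn5, chr5:168920400-169030568). Vehicle rats 3, 9 and 11 had 5.58, 5.60 and 6.18 FPKM, and olanzapine rats 4, 10 and 12 had 4.52, 4.20 and 4.06 FPKM, the order of rats used throughout. The values lay close together within each group and did not overlap, with means of 5.79 ± 0.341 and 4.26 ± 0.236 FPKM (SD, n = 3 each). On the log2(FPKM + 1) scale the fold change was -0.37 (standard error, SE, 0.16), which did not pass the test over all genes (limma, adjusted p = 0.376). Over the alternatives its adjusted p was 0.357 to 0.701. Scaling by median-ratio size factors gave a log2 fold change of -0.22.

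The 250 bases before the start of Mtor are shown because its groups separated. They were taken from RefSeq on the assembly GRCr8 (chr5:164167735-164167984, plus strand), a build other than that of the expression table, and 7 of the 10 genes had an entry (Mtor, Rictor, Ddit4, Ddit4l, Sesn1, Sesn2 and Rps6kb1). Capitals mark CCAAT on either strand, which reads ATTGG on the minus strand.
Mtor: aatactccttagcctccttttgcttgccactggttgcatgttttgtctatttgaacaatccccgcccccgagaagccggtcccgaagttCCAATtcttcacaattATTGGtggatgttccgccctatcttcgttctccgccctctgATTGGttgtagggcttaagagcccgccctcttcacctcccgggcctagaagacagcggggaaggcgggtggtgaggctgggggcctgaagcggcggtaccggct
The letters CCAAT occurred 3 times in this window and in 34% of 33469 rat promoters of equal length, and in 5 of the 7 members' promoters. A match of letters is a description and not a binding site.

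Rptor, the scaffold of mTORC1 (chr10:108353696-108658916 in Rn5), was at 3.45, 4.25 and 4.54 FPKM in the vehicle rats and 3.27, 3.37 and 2.24 FPKM in the olanzapine rats. All olanzapine rats were lower, but the gap between vehicle rat 3 and olanzapine rat 10 was small beside the spread within the groups. The log2 fold change was -0.37 (SE 0.20, limma, adjusted p = 0.456), and leaving out a rat gave -0.46 to -0.23. Rictor, the scaffold of mTORC2 (chr2:75754851-75842492 in Rn5), was at 0.978, 0.628 and 1.57 FPKM in the vehicle rats and 0.873, 0.654 and 0.727 FPKM in the olanzapine rats. Its highest value was in vehicle rat 11, the library with the lowest inferred depth. Fitted without a filter on low values, Rictor had a log2 fold change of -0.21 (SE 0.20, limma, adjusted p = 0.7). The share of Rictor in the sum of Rictor and Rptor, a ratio within a rat that needs no scaling between rats, was 22.1, 12.9 and 25.7% in the vehicle rats and 21.1, 16.3 and 24.5% in the olanzapine rats. The groups covered the same range (20.2% ± 6.61 and 20.6% ± 4.13, SD, n = 3 each, two-sided exact permutation test p = 1, with 0.1 as the smallest p that 3 rats per group can give).

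Deptor, which binds mTOR in both complexes and inhibits it (chr7:95432382-95620730 in Rn5), was at 9.33, 7.76 and 19.5 FPKM in the vehicle rats and 19.1, 20.7 and 9.46 FPKM in the olanzapine rats. Both groups held high and low rats, and vehicle rat 11 and olanzapine rat 12 each went against the rest of their group. The log2 fold change was 0.43 (SE 0.37, limma, adjusted p = 0.615). It was 0.80 without vehicle rat 11 (adjusted p = 0.559) and 0.76 without olanzapine rat 12 (adjusted p = 0.684), and 0.19 to 0.31 when any of the other 4 rats was left out.

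Ddit4 is induced by hypoxia, glucocorticoids and energy stress in many tissues (chr20:31315029-31317123 in Rn5). It was at 19.1, 15.8 and 9.25 FPKM in the vehicle rats and 17.3, 8.46 and 26.9 FPKM in the olanzapine rats. The lowest and the highest of the 6 values were both in olanzapine rats. The log2 fold change was 0.16 (SE 0.40, limma, adjusted p = 0.868), a 95% interval of -0.75 to 1.07 that holds changes in either direction. Ddit4l, its paralog, which is abundant in skeletal muscle (chr2:261430990-261433647 in Rn5), was at 164, 72.5 and 143 FPKM in the vehicle rats and 119, 130 and 326 FPKM in the olanzapine rats. Olanzapine rat 12 stood far above the others, and the remaining olanzapine rats lay within the vehicle range. The log2 fold change was 0.52 (SE 0.43, limma, adjusted p = 0.592), and it was 0.06 without olanzapine rat 12 and 0.16 without vehicle rat 9. By its own likelihood ratio test, the study reported Ddit4l as significantly raised by olanzapine and Ddit4 as not affected. The share of Ddit4l in the sum of both paralogs was 89.6, 82.1 and 93.9% in the vehicle rats and 87.3, 93.9 and 92.4% in the olanzapine rats, with no separation (two-sided exact permutation test, p = 0.7).

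The promoters of these paralogs are shown side by side, since both genes were high in olanzapine rat 12 (RefSeq, GRCr8, Ddit4 at chr20:28437038-28437287 on the minus strand and Ddit4l at chr2:228801457-228801706 on the plus strand). Capitals mark ACGTG, a form of the core of a hypoxia response element, the CCAAT box as above, and a TATA box. For the TATA box the search used the letters TATAAA. Each was searched on both strands.
Ddit4: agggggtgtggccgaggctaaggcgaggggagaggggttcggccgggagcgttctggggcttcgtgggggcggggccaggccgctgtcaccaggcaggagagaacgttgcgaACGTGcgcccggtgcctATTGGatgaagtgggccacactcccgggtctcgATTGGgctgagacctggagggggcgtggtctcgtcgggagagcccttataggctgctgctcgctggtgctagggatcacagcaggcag
Ddit4l: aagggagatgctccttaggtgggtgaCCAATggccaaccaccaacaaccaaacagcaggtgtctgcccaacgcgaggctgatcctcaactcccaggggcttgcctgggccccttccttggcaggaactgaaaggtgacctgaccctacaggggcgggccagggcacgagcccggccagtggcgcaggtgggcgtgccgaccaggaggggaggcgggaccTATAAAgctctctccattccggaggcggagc
The Ddit4 window held ACGTG at 138 to 134 bases before the start, which 16.6% of 33469 promoters held somewhere, and the CCAAT box on the minus strand 2 times. The Ddit4l window lacked ACGTG and had the CCAAT box 1 time. It had the TATA box at 31 to 26 bases before the start, and 12.9% of the promoters held those letters. Both windows held GCGTG, a form of the hypoxia element core that was not searched. The C/EBP-ATF element, searched as TGATGNAA, was found in 3.4% of all promoters and in 0 of the 7 members. A glucocorticoid receptor half-site, for which the search used AGAACA, was found in 17.5% of all promoters and, among the 7 members, in Rps6kb1.

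Sestrins are stress-induced proteins, of which Sesn2 is known as a sensor of leucine. Sesn1 (chr20:48347550-48437686 in Rn5) was at 24.4, 16.4 and 21.9 FPKM in the vehicle rats and 15.8, 16.5 and 22.3 FPKM in the olanzapine rats. The groups overlapped over nearly their whole range, and the log2 fold change was -0.19 (SE 0.21, limma, adjusted p = 0.697). It was -0.02 with size factors, and -0.34 to -0.07 when a rat was left out. Sesn2 (chr5:154351309-154370252 in Rn5) was at 1.09, 1.73 and 1.81 FPKM in the vehicle rats and 1.73, 0.995 and 1.44 FPKM in the olanzapine rats, values near the limit of the filter. Its log2 fold change was -0.09 (SE 0.22, limma, adjusted p = 0.875). Sesn3, the paralog outside the 10 genes, was at 2.95, 2.92 and 3.71 FPKM in the vehicle rats and 1.82, 1.89 and 1.5 FPKM in the olanzapine rats. It was lower in every olanzapine rat, with a log2 fold change of -0.61 (SE 0.19) that did not pass the test over all genes (limma, adjusted p = 0.239). Sesn1 took 85.8, 77.9 and 79.9% of the summed sestrin level in the vehicle rats and 81.6, 85.1 and 88.4% in the olanzapine rats (two-sided exact permutation test, p = 0.3).

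Eif4ebp1 (chr16:68580279-68593651 in Rn5) was at 70.4, 65.4 and 44.8 FPKM in the vehicle rats and 87.6, 78.7 and 152 FPKM in the olanzapine rats. Every olanzapine rat was higher, with rat 12 far above the others, and the means were 60.2 ± 13.5 and 106 ± 39.8 FPKM (SD, n = 3 each). The log2 fold change was 0.77 (SE 0.28, 95% interval 0.13 to 1.41), which did not pass over all genes (limma, adjusted p = 0.313). Over the alternatives the adjusted p was 0.229 to 0.695, and without olanzapine rat 12 the log2 fold change was 0.48. The Poisson test gave an unadjusted p of 7.29e-09 for Eif4ebp1 and of 6.6e-09 for Ddit4l. By its own test, the study names Eif4ebp1 among glucocorticoid responsive genes that olanzapine raised significantly.

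Its paralogs encode repressors of the same step. Eif4ebp2 was at 22.3, 28.5 and 24.8 FPKM in the vehicle rats and 21.8, 27.0 and 17.2 FPKM in the olanzapine rats, and Eif4ebp3 was at 2.91, 4.81 and 3.36 FPKM and at 4.39, 3.80 and 3.67 FPKM. Both overlapped between the groups, with log2 fold changes of -0.20 and 0.10 (limma, adjusted p = 0.663 and 0.848). The share of Eif4ebp1 in the sum of the family was 73.7, 66.2 and 61.5% in the vehicle rats and 77, 71.9 and 87.9% in the olanzapine rats. Olanzapine rat 10 lay below vehicle rat 3, and the difference between 67.1% ± 6.15 and 78.9% ± 8.18 (SD, n = 3 each) had p = 0.2 in a two-sided exact permutation test. The difference was 11.8 percentage points, and 7.3 without olanzapine rat 12.

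Rps6kb1 (chr10:76234214-76275377 in Rn5) was at 11.8, 11.6 and 11.8 FPKM in the vehicle rats and 12.3, 11.3 and 8.26 FPKM in the olanzapine rats. The vehicle rats were nearly equal, and olanzapine rats 4 and 10 stood on either side of them with rat 12 below. Its log2 fold change was -0.15 (SE 0.18, limma, adjusted p = 0.729), and the sign turned with size factors, at 0.01. Rps6kb2, the other S6 kinase, was at 8.90, 8.74 and 4.02 FPKM in the vehicle rats and 8.81, 6.78 and 9.38 FPKM in the olanzapine rats. Its low value was in vehicle rat 11, and the log2 fold change was 0.24 (SE 0.28, limma, adjusted p = 0.711). The share of Rps6kb1 in both S6 kinases was 57, 57 and 74.5% in the vehicle rats and 58.2, 62.6 and 46.8% in the olanzapine rats (two-sided exact permutation test, p = 0.6). Over the 5 shares computed, the adjusted p was 0.75 to 1 (Benjamini-Hochberg).

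**Figure D2:**
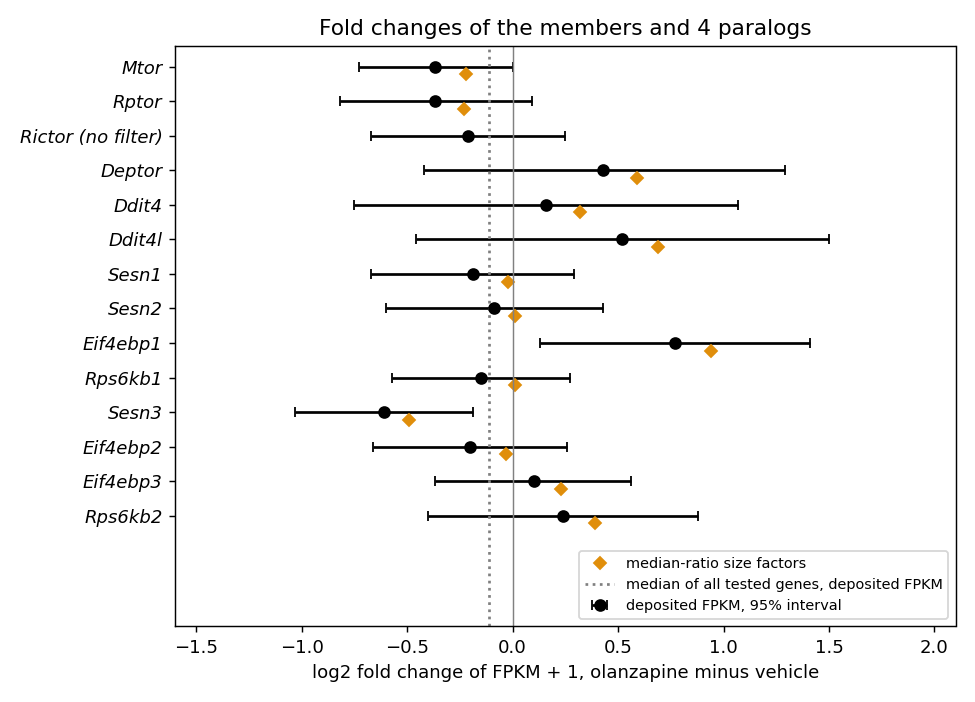
Log2 fold change of FPKM + 1, olanzapine minus vehicle, for the 10 genes and 4 paralogs, with 95% intervals from limma (black) and the value after median-ratio scaling (orange, where fitted). The dotted line is the median of all tested genes at -0.11. The intervals of Eif4ebp1 at 0.77 and Sesn3 at -0.61 leave out 0, and that of Mtor at -0.37 does so only narrowly.

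**Figure D3:**
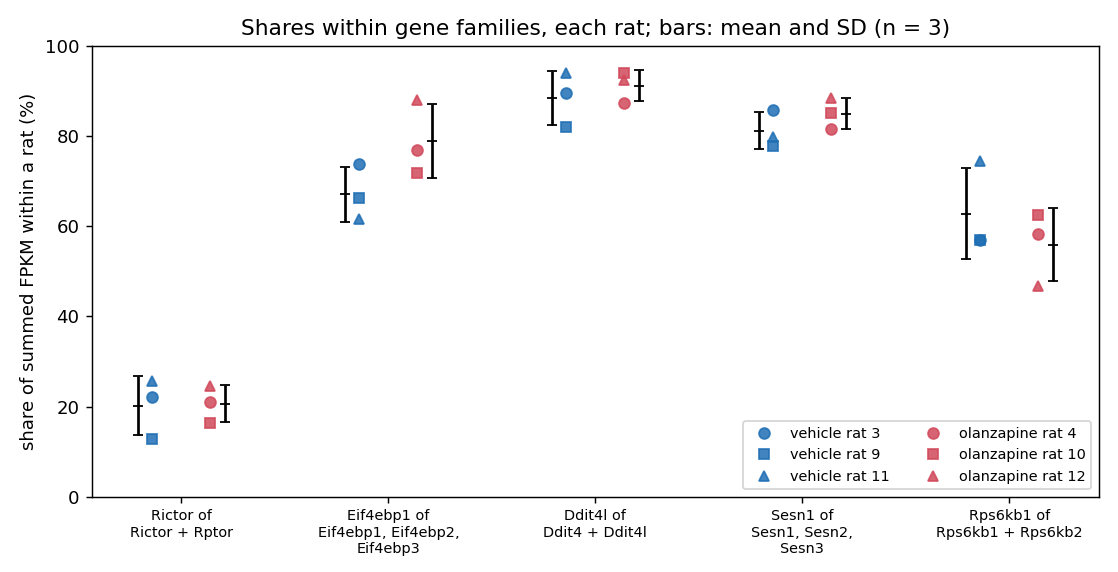
Share of a gene in the summed FPKM of its family or pair within each rat, in percent, with vehicle rats in blue, olanzapine rats in red and black bars at the mean and SD of 3 rats. All 5 shares overlap between the groups, including that of Eif4ebp1 at 67.1% in vehicle and 78.9% in olanzapine rats.

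The 10 genes did not share one pattern over the rats. Olanzapine rat 12 was the highest of the 6 rats for Ddit4, Ddit4l and Eif4ebp1 and the lowest for Mtor, Rptor and Rps6kb1, so it was at an end of the range in 6 of the 10 genes. Over all tested genes it was highest in 15.7% and lowest in 34.9%. Among 3668 named genes that averaged 10 FPKM or more, those with the smallest root mean square difference from Eif4ebp1 over the 6 rats, each gene centered on its own mean on the log2(FPKM + 1) scale, were Zfp771 at 0.09, Sec61g at 0.11 and Pepd at 0.11, where the spread of Eif4ebp1 itself was 0.52. Zfp771 was at 22.1, 19.3 and 15.9 FPKM in the vehicle rats and 27.1, 26.9 and 51.4 FPKM in the olanzapine rats. The genes closest to Ddit4l, with a spread of 0.64, were Cited2 at 0.26, Fau at 0.28 and Ucp3 at 0.28. Cited2, a transcriptional coregulator, was at 61.6, 25.8 and 45.2 FPKM in the vehicle rats and 52.5, 32 and 96.4 FPKM in the olanzapine rats. Ucp3, a mitochondrial carrier of muscle, was at 32.6, 9.26 and 26.7 FPKM in the vehicle rats and 20.6, 30.9 and 79.2 FPKM in the olanzapine rats. All of these had their highest value in rat 12, which follows from their choice by likeness to Eif4ebp1 and Ddit4l over the same 6 rats.

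Other genes of the pathway were counted from 6 lists and the 4 paralogs, 93 genes of which 80 were tested. None passed an adjusted p under 0.05 in limma. At an unadjusted p under 0.05 in limma, 4 were higher and 6 were lower, where 3.79% and 9.45% of all tested genes were. The Poisson test passed 15 at an unadjusted p under 0.05, against 13.9% of all genes. Groups without overlap occurred in 7 with olanzapine higher and 8 with olanzapine lower, against 5.12% and 14.6% of all genes. The median log2 fold change of the 80 genes was -0.09, beside -0.11 over all genes. Rragb, Rps6 and Nupr1, each with 2 rows, were listed at 0 in all rats. The values come from uniquely mapped reads only, and whether these genes were silent was not tested. The lists were written with earlier results of these data known.

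Upstream of mTORC1, Irs1, the insulin receptor substrate, was at 3.71, 3.65 and 5.88 FPKM in the vehicle rats and 2.21, 3.11 and 2.97 FPKM in the olanzapine rats, lower in each (log2 fold change -0.51, limma, adjusted p = 0.37, and -0.32 without vehicle rat 11, the highest). Akt2, the main Akt isoform of insulin action, was at 81.4, 78.4 and 79.7 FPKM in the vehicle rats and 103, 108 and 92.3 FPKM in the olanzapine rats, higher in each (log2 fold change 0.34, limma, adjusted p = 0.399). These were the genes with separated groups among the 9 tested of the list of TSC, Rheb and upstream kinases. Of the 9, 8 had a log2 fold change below 0 and the median was -0.22. The median over all tested genes was itself -0.11, and it was 0.03 with median-ratio size factors, under which the list was not counted again. In the list of complex subunits and assembly factors, 5 genes were tested and all overlapped between the groups, with log2 fold changes of -0.19 to 0.18.

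In the amino acid arm, 21 genes were tested and the median log2 fold change was 0.02. Sar1b, a small GTPase of vesicle budding that is also described as a leucine sensor, was at 513, 325 and 317 FPKM in the vehicle rats and 764, 710 and 1179 FPKM in the olanzapine rats. It was higher in every olanzapine rat (log2 fold change 1.20, SE 0.27, limma, adjusted p = 0.137). The study, by its own test, also names Sar1b as a glucocorticoid responsive gene that olanzapine raised significantly. Rragd, a Rag GTPase, was at 26.1, 26.8 and 28.0 FPKM in the vehicle rats and 37.4, 32.2 and 34.3 FPKM in the olanzapine rats, and again the groups were apart (log2 fold change 0.35, limma, adjusted p = 0.377). Lamtor2, of the Ragulator that anchors the Rag GTPases, and Seh1l, of the GATOR2 complex, had log2 fold changes of 0.24 and -0.31 with groups apart (limma, adjusted p = 0.532 and 0.499).

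Among 18 tested effectors the median log2 fold change was -0.04. Sgk1, a kinase that mTORC2 activates and that glucocorticoids induce in many tissues, was at 10.8, 19.3 and 13.2 FPKM in the vehicle rats and 10.4, 4.41 and 4.61 FPKM in the olanzapine rats. The groups were separated by the narrow gap between vehicle rat 3 and olanzapine rat 4 (log2 fold change -1.10, SE 0.32, limma, adjusted p = 0.234). Eef2k, the elongation factor 2 kinase that S6 kinase inhibits, was at 25.9, 26.4 and 22.8 FPKM in the vehicle rats and 21.6, 17.6 and 20.1 FPKM after olanzapine (log2 fold change -0.33, limma, adjusted p = 0.42).

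Of 12 tested genes of the stress responses that are linked to Ddit4 and the sestrins, 9 had a log2 fold change below 0. This list holds both regulators and targets of these responses. Its median was -0.27, beside -0.11 over all tested genes, which became 0.03 with size factors. The list was not counted again under that scaling. Cdkn1a, the p53 target p21, was at 13.2, 12.5 and 16.9 FPKM in the vehicle rats and 26.6, 43.6 and 38.7 FPKM in the olanzapine rats. It was higher in every olanzapine rat with a log2 fold change of 1.28 (SE 0.22) and missed the threshold of 0.05 (limma, adjusted p = 0.0581), and its adjusted p was 0.0201 to 0.234 over the alternatives. Mdm2, another p53 target, had a log2 fold change of 0.48 with groups apart (limma, adjusted p = 0.332). Ddit3 (CHOP), a factor of endoplasmic reticulum stress, was at 20.2, 20.2 and 23.4 FPKM in the vehicle rats and 15.8, 13.7 and 8.70 FPKM in the olanzapine rats, and Epas1, a hypoxia-inducible factor, had a log2 fold change of -0.48, which was -0.27 without olanzapine rat 12. Both had groups apart with olanzapine lower (limma, adjusted p = 0.243 for Ddit3 and 0.377 for Epas1).

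Of 11 genes listed as glucocorticoid targets, 8 had a log2 fold change above 0 and the median was 0.16, beside -0.11 over all tested genes. The list held the receptor gene Nr3c1 and left out Sgk1, which was counted among the effectors. Groups without overlap occurred in 1 of the 11, Fkbp5, with olanzapine higher, as in 5.12% of all tested genes. Klf15 and Cebpd overlapped, with log2 fold changes of 0.64 (SE 0.33) and 0.67 (SE 0.61, limma, adjusted p = 0.432 and 0.632). Both were highest in olanzapine rat 12, at 34.7 and 71.8 FPKM. By its own test the study names Cebpd among the glucocorticoid response genes that olanzapine raised significantly. Tsc22d3, Per1 and Zbtb16 overlapped too, with log2 fold changes of 0.16, 0.33 and 0.12. So did Nr3c1, Foxo1 and Foxo3, at -0.18, -0.05 and -0.16. Fkbp5, a chaperone of the glucocorticoid receptor, was at 5.70, 9.78 and 4.06 FPKM in the vehicle rats and 14.2, 15.4 and 14.4 FPKM in the olanzapine rats, higher in each (log2 fold change 1.13, SE 0.26, limma, adjusted p = 0.145). Trim63 and Fbxo32 are ubiquitin ligases of muscle atrophy. Trim63 was at 62.7, 48.2 and 40.6 FPKM in the vehicle rats and 63.1, 56.9 and 92.2 FPKM in the olanzapine rats, with overlap (limma, adjusted p = 0.426). Fbxo32 was at 43.0, 12.7 and 44.0 FPKM in the vehicle rats and 23.5, 13.4 and 90.0 FPKM in the olanzapine rats, high in rat 12 like Ddit4l (log2 fold change 0.08, limma, adjusted p = 0.964). By its own test the study reported Trim63 as significantly raised, though it elsewhere lists Trim63 as not affected, and Fbxo32 as not affected.

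**Figure D4:**
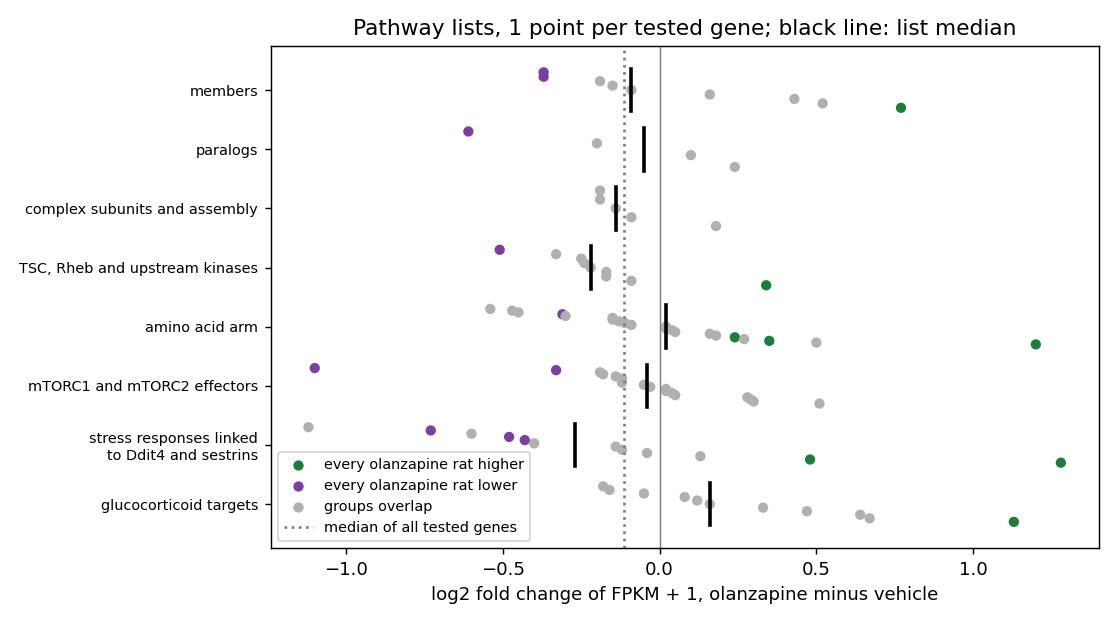
Log2 fold change of FPKM + 1, olanzapine minus vehicle, with 1 point per tested gene in each list, green where every olanzapine rat was higher, purple where every olanzapine rat was lower and grey where the groups overlapped. Black lines are list medians, from -0.27 in the stress response genes to 0.16 in the glucocorticoid targets, and the dotted line is the median of all tested genes at -0.11.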

How the data were processed

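RNA of gastrocnemius from 6 separate rats was sequenced by the authors as single-end libraries of a kit that does not mark strand, so reads of overlapping genes on opposite strands cannot be told apart. The submitters' processing notes name CASAVA 1.8.2, TopHat2 2.0.9, Cufflinks 2.2.1 and the assembly Rnor 5.0 (Rn5). The deposited values are FPKM per gene, computed by the authors from uniquely mapped reads. Read counts were not used here, so depth was judged only from the steps between low values. The table also holds the authors' group means, standard errors, normalized fold changes and marks of p under 0.05 and 0.001, which were not used.

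Genes that averaged 1 FPKM or more were compared on log2(FPKM + 1) with limma 3.58.1 (R 4.3.3, variance trend, two-sided, all 6 rats, Benjamini-Hochberg over all genes tested), after a test on simulated data. Such fold changes understate the change of low genes. Shares within a rat were compared with exact permutation tests in scipy 1.17.1. Of the pathway lists, the text names all members and paralogs, any gene that passed the test, up to 4 genes per list with the largest fold changes among those whose groups did not overlap, Trim63 and Fbxo32, and the 3 genes nearest to Ddit4l and to Eif4ebp1. Outside this rule, the text also names the other genes of the glucocorticoid list and the genes listed at 0 in all rats. The members and lists were chosen with earlier results of these data known. Alternatives were the pseudocount, the filter, the scaling, the variance trend, a Poisson test, summing repeated symbols and leaving out each rat. The check of groups without overlap under other scalings and without each rat was added after seeing the data.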

Additional observations from a re-analysis of the deposited data

How the results depend on the processing

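The rats were treated as unpaired. Their numbers are neighbors across the groups (3 and 4, 9 and 10, 11 and 12), but the labels do not say whether such rats were handled together. For 28 named genes, 440 log2 fold changes were recomputed under other settings, and their p was set against the main adjusted p. Of these, 417 kept their direction and their side of 0.05, 13 came under 0.05 and 10 changed sign. The Poisson entries were judged by an unadjusted p, so these counts mix thresholds. Eif4ebp1, counted among the 13 for its Poisson value, already had an unadjusted p of 0.0244 in limma. Mtor, counted among the 417, had an unadjusted p of 0.0483 in limma and 0.349 in the Poisson test. The sign changed with median-ratio size factors for Sesn2 and Rps6kb1, at 0.01 each. When each rat was left out in turn, the log2 fold change ranged from -0.20 to 0.58 for Ddit4, from -0.22 to 0.04 for Sesn2, from -0.25 to 0.01 for Rps6kb1, from -0.03 to 0.26 for Eif4ebp3, from -0.09 to 0.40 for Rps6kb2 and from -0.68 to 0.65 for Fbxo32. The count of members past an adjusted p under 0.05 was 0 under every limma setting. At an unadjusted p under 0.05 the Poisson test passed 2, Ddit4l and Eif4ebp1, both higher. At that threshold limma also passed 2, but these were Eif4ebp1, higher, and Mtor, lower. The count of pathway genes at an adjusted p under 0.05 was 0 in limma. It was 1 with the filter raised to 10 FPKM, 1 after genes at 0 in a rat were dropped and 0 to 1 when a rat was left out. At an unadjusted p under 0.05 it was 15 in the Poisson test (10 higher, 5 lower), where limma gave 4 higher and 6 lower. The 1 gene was Cdkn1a, with an adjusted p of 0.0295 without olanzapine rat 4. Over all genes the limma count of 52 became 27 without the filter, 31 with size factors, 73 with the filter at 10 FPKM, 102 after genes at 0 were dropped and 14 to 62 when a rat was left out. At an unadjusted p under 0.05 the Poisson test passed 627 higher and 803 lower, and limma 390 higher and 972 lower. Members whose groups did not overlap numbered 3, and 2 under either other scaling (Rptor then overlapped), a check chosen after seeing the data. They were 3 to 4 when a rat was left out, with Deptor added without vehicle rat 11 and Rps6kb1 without olanzapine rat 4. Without each rat in turn, the difference in share, in percentage points, was -3.27 to 3.13 for Rictor, 7.3 to 15.3 for Eif4ebp1, -0.554 to 5.37 for Ddit4l, 2.16 to 6.12 for Sesn1 and -10.3 to -1.12 for Rps6kb1. The cause of these shifts was not tested. With 3 rats per group, the permutation tests allow no p below 0.1, and values near 1 FPKM, as in Rictor and Sesn2, rest on few reads.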
